A study of Rattus norvegicus with 40 samples.

Results

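The mitochondrial genome encodes core subunits of the respiratory chain, and 9 of these genes were followed here across microglia of the rat medulla and cervical spinal cord. The set was chosen by Ensembl gene ID and holds 9 of the 32883 IDs in the deposited count table. Complex I, which passes electrons from NADH to ubiquinone, was represented by mt-Nd1 (ENSRNOG00000030644), mt-Nd2 (ENSRNOG00000031033), mt-Nd4 (ENSRNOG00000029707) and mt-Nd5 (ENSRNOG00000029971). Cytochrome b of complex III was represented by mt-Cytb (ENSRNOG00000031766). The catalytic core of complex IV, cytochrome c oxidase, was represented by mt-Co1 (ENSRNOG00000034234), mt-Co2 (ENSRNOG00000030371) and mt-Co3 (ENSRNOG00000030700), and the proton channel of complex V, the ATP synthase, by mt-Atp6 (ENSRNOG00000031979). The pairing of IDs with symbols came from the list that defined the set, because the count table carries IDs alone.

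Mitochondrial genes are transcribed as long precursors that cover many genes and are then cut into single RNAs, so the amounts of the mature RNAs depend on transcription, cutting and decay together. The mitochondrial genome also encodes further subunits of complexes I and V that are not in this set. All other subunits of complexes I, III, IV and V are encoded in the nucleus and imported. Microglia, the resident macrophages of the central nervous system, use oxidative phosphorylation at rest and are known to shift towards glycolysis when activated.

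The animals were Sprague Dawley rats aged 8 weeks. Their dams breathed room air throughout, called intermittent normoxia (21% oxygen), or alternating 10.5% and 21% oxygen, called intermittent hypoxia, from gestational day 10 to 21, with 15 cycles in each hour of an 8 hour daily session. All offspring were born and raised in room air, so both exposures ended before birth. Microglia were pulled from the medulla and from cord segments C3 to C6 with magnetic beads against CD11b, a surface protein that other myeloid cells also carry. The 8 groups of sex, exposure and region held 5 libraries each, from 20 animals that gave both regions. No marker of microglia, of other cells or of either region could be checked, since 0 of the IDs could be matched to a symbol in the reference table, and in such pooled cells a smaller number of cells of a type and less RNA per cell cannot be told apart.

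Library totals ranged from 6061346 to 24039411 counts. In the male normoxia medulla they were at least 17741844. That was above every library of the male hypoxia medulla, the female normoxia medulla and the male normoxia cord. The part of these totals in comparisons between such groups was not tested. The 9 genes together received 6024 counts in female hypoxia medulla replicate 3 and at least 56705 in every other library. That library had counts in 13379 genes, where the other 4 of its group had 17250 to 17850, and results that rest on it are given with and without it. Outside it the lowest count of any of the 9 genes was 952, so counting error was small beside the differences between animals.

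The share of all counts that fell on the 9 genes was highest in the female hypoxia cord, at 2.14 ± 0.496% (SD, n = 5 here and below), and lowest in the female hypoxia medulla, at 0.893 ± 0.611%. Between these came the female normoxia medulla at 2.13 ± 0.530%, the male hypoxia medulla at 1.98 ± 0.409%, and the male normoxia medulla at 1.85 ± 0.276%. The male hypoxia cord followed at 1.20 ± 0.542%, the female normoxia cord at 1.08 ± 0.0852% and the male normoxia cord at 0.958 ± 0.264%. Without replicate 3 the female hypoxia medulla was at 1.09 ± 0.485% (n = 4), above both normoxia cord groups, so its place at the bottom rested on that library. In the order of all libraries the ranges of each neighbouring pair of groups overlapped. The order put the female hypoxia cord among the medulla groups of the other animals, and the female hypoxia medulla among their cord groups.

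**Figure D1:**
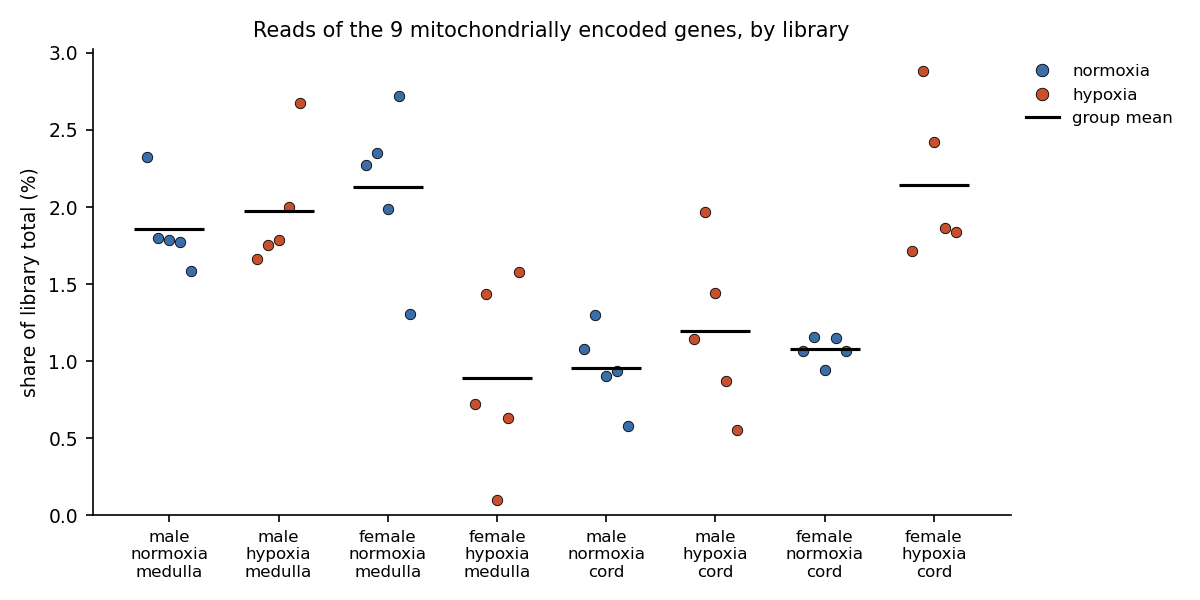
Share of each library's counts that fell on the 9 mitochondrially encoded genes (vertical axis, percent), with 1 point per library, 8 groups of 5 along the horizontal axis and a line at each group mean. The female hypoxia cord libraries lie between 1.71% and 2.88%, above all female normoxia cord libraries, and the female hypoxia medulla holds the lowest library, at 0.0994%.

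In the female cord, with regions as labelled, all 9 genes were higher in hypoxia offspring than in normoxia offspring. For every one of them the lowest hypoxia library lay above the highest normoxia library. The change was largest for mt-Nd2, a membrane subunit of complex I, and smallest for mt-Co1, the subunit of complex IV that holds the site of oxygen reduction.

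The mt-Nd2 values were 458, 500, 380, 452 and 460 CPM (the count scaled to a common library total of 1000000) in the normoxia libraries, replicates 1 to 5. In the hypoxia libraries they were 1223, 2571, 1779, 1394 and 1270 CPM. The normoxia animals were alike, while hypoxia replicates 2 and 3 stood highest. The fitted log2 fold change of mt-Nd2 was 2.04 (SE 0.44), a 4.13-fold rise (edgeR quasi-likelihood test, adjusted p = 0.00138).

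For mt-Co1 the normoxia libraries gave 3912, 4158, 3852, 4570 and 4512 CPM. The hypoxia libraries gave 5434, 7470, 7305, 6011 and 6080 CPM. Here too the groups did not overlap, but the gap between them was narrow relative to mt-Nd2. Its log2 fold change was 0.78 (SE 0.22), a 1.72-fold rise (edgeR adjusted p = 0.0087).

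The other complex I genes rose by 1.11 to 1.41 on the log2 scale. For mt-Nd1, which sits where ubiquinone binds, normoxia libraries spanned 466 to 630 CPM and hypoxia libraries 1171 to 1428 CPM (log2 fold change 1.41, SE 0.31, edgeR adjusted p = 0.00188). The proton-pumping subunits mt-Nd4 and mt-Nd5 changed by 1.30 (SE 0.36) and 1.11 (SE 0.34) on the log2 scale, with edgeR adjusted p of 0.00826 and 0.0164. Of the 4 complex I genes, mt-Nd5 had the smallest fold change.

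Cytochrome b was even within both groups. Its gene mt-Cytb gave 616 to 744 CPM under normoxia and 1299 to 1538 CPM under hypoxia (log2 fold change 1.20, SE 0.32, edgeR adjusted p = 0.00671). Among the complex IV genes, mt-Co2, which receives electrons from cytochrome c, changed by 1.00 (SE 0.27) and mt-Co3 by 1.38 (SE 0.30), with edgeR adjusted p of 0.00681 and 0.00153. The ATP synthase gene mt-Atp6 rose from 934 ± 151 to 2287 ± 869 CPM (log2 fold change 1.47, SE 0.34, edgeR adjusted p = 0.00251). In hypoxia replicate 2, mt-Co3 reached 6429 CPM and mt-Atp6 3577 CPM, the highest of that group.

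These 9 calls stand against a broad background, because 32.8% of the 13593 genes tested were called in this comparison and 18.2% were called higher after hypoxia. With scaling by library totals alone 12.2% were called higher and 23.6% lower, the median of all genes moved from -0.01 to -0.16, and all 9 genes were still called higher. Among genes of at least 1 CPM, 7.59% had all hypoxia libraries above all normoxia libraries. The median log2 fold change of the 9 genes was 1.30, against -0.01 over all genes. Leaving out any of the 20 cord libraries in turn left all 9 called. Library totals also parted these groups, from 13570283 to 20650051 counts in hypoxia and from 8818241 to 13327037 in normoxia. The most abundant gene took 4.56% to 11.0% of counts in the hypoxia libraries and 2.65% to 3.71% in the normoxia libraries. The part of these in the result was not tested.

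**Figure D2:**
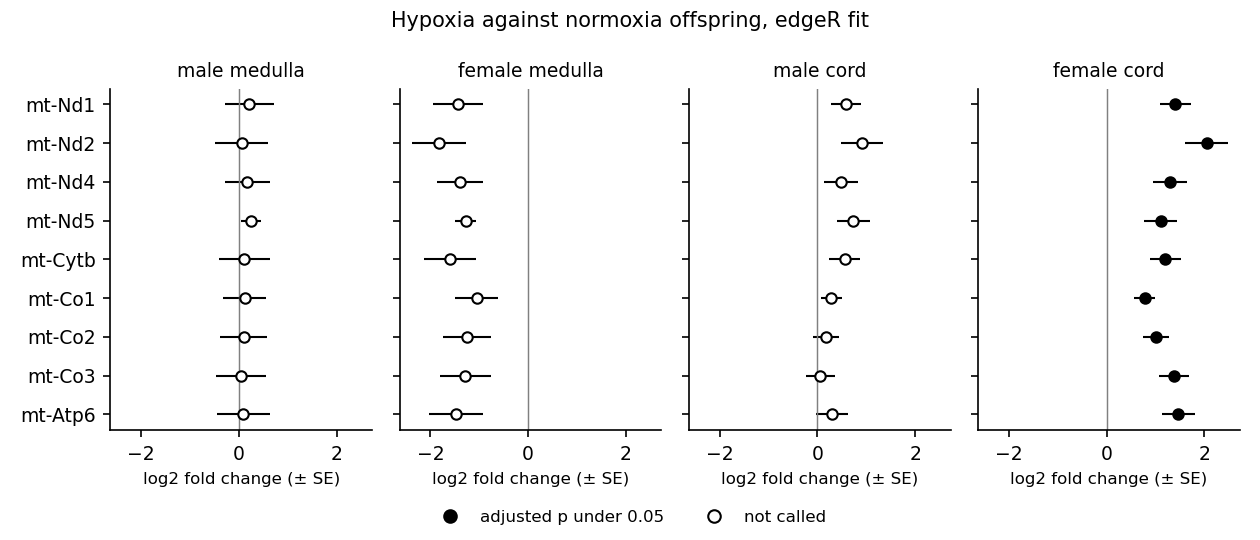
Log2 fold change of each gene between hypoxia and normoxia offspring, with its standard error (horizontal axis), in the 4 combinations of sex and region, from the edgeR fit. Filled points had an adjusted p under 0.05. In the female cord all 9 are filled, from 0.78 to 2.04, while in the female medulla all 9 open points lie between -1.82 and -1.05.

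In the male cord, where the libraries were also 5 against 5, none of the 9 genes was called. Their log2 fold changes ran from 0.06 to 0.92 and were all above 0, with the highest for mt-Nd2. At an unadjusted p under 0.05 there were 2 of 9, and 6.19% of all genes. DESeq2 and limma voom with quality weights also called 0 of 9, and edgeR called 0% of 13593 genes. The male groups were wide. For mt-Nd2 the normoxia libraries gave 407, 392, 245, 149 and 94.3 CPM. The hypoxia libraries gave 434, 894, 709, 308 and 103 CPM. In both groups replicate 5 was the lowest.

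Whether the hypoxia response of the cord differed between the sexes was tested as an interaction. Only mt-Co3, the third core subunit of complex IV, was called, with a response more positive in females by 1.32 on the log2 scale (SE 0.42, edgeR adjusted p = 0.0267), in a comparison that called 23.2% of all genes and 13.2% in this direction. With scaling by library totals the latter share was 9.48%, and the median of all genes lay at -0.18. The mt-Co3 values were 1679, 2660, 1635, 2314 and 1114 CPM in normoxia males. They were 1687, 3471, 2114, 1428 and 1195 CPM in hypoxia males. The male groups thus covered each other, whereas in females the normoxia libraries gave 1460 to 2100 CPM and the hypoxia libraries 2630 to 6429 CPM. The call was lost without male normoxia cord replicate 2 (adjusted p = 0.057) and without female hypoxia cord replicate 2 (adjusted p = 0.062). Without male hypoxia cord replicate 2, 3 of 9 genes were called, and without male normoxia cord replicate 5, 2 of 9. The interaction of the other 8 genes ranged from 0.38 for mt-Nd5 to 1.17 for mt-Atp6, with adjusted p values of 0.077 to 0.598. In this fit none of those 8 was called.

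In the female medulla, with regions as labelled, the 9 genes went the other way. Every one had a negative log2 fold change after hypoxia, from -1.82 for mt-Nd2 to -1.05 for mt-Co1, but none was called by edgeR at the adjusted threshold, and 0% of the 14151 genes tested were. At an unadjusted p under 0.05 there were 9 of 9, beside 15.4% of all genes. In a fit of only the 10 libraries compared there were 4 of 9, beside 956 of 13274 genes. DESeq2 and limma voom each called 1 of 9, among 60 genes called by DESeq2 and 1 by limma voom. For 8 of the genes the libraries of the groups overlapped. The mt-Cytb values were 2045, 1933, 1525, 2011 and 990 CPM under normoxia. Under hypoxia they were 401, 904, 19.5, 428 and 1105 CPM. Hypoxia replicates 2 and 5 lay close to normoxia replicate 5, which was the lowest normoxia library.

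The exception was mt-Nd5. Its normoxia libraries held 1242, 1115, 929, 1072 and 624 CPM. Its hypoxia libraries held 310, 386, 485, 352 and 477 CPM, all below the normoxia range, a separation seen in 0.581% of genes of at least 1 CPM. The edgeR log2 fold change was -1.28 (SE 0.21, adjusted p = 0.0752). The adjusted p was 9.98e-05 with DESeq2 and 0.00241 with limma voom, and with limma voom mt-Nd5 was the only gene called among all 14151. With scaling by library totals alone edgeR also called this 1 gene and no other (adjusted p = 0.00451). It was called without female hypoxia medulla replicate 3 (edgeR adjusted p = 0.0145) and without female normoxia medulla replicate 5 (edgeR adjusted p = 0.00798). Of the 20 fits that each left out a library, only these 2 called it. It was not called with RLE factors, without the filter on low counts, with the replicate block or with only the 10 libraries compared.

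Female hypoxia medulla replicate 3 is where mt-Nd5 parted from the rest. In that library 8 of the genes had 15.3 to 246 CPM, each the lowest value of all 40 libraries, while mt-Nd5 had 485 CPM, the highest of its group. Put in counts, mt-Nd5 received 2938 of the 6024 reads of the 9 genes, or 48.8%, where it took 1.68% to 5.58% in the other 39 libraries. The share of all counts on the 9 genes in that library was 0.0994% (Wilson 95% interval 0.0969% to 0.102%, for counting error only). For exposure without that library, the log2 fold changes of the other 8 genes against normoxia lay between -1.50 and -0.745, and none of those 8 was called.

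**Figure D3:**
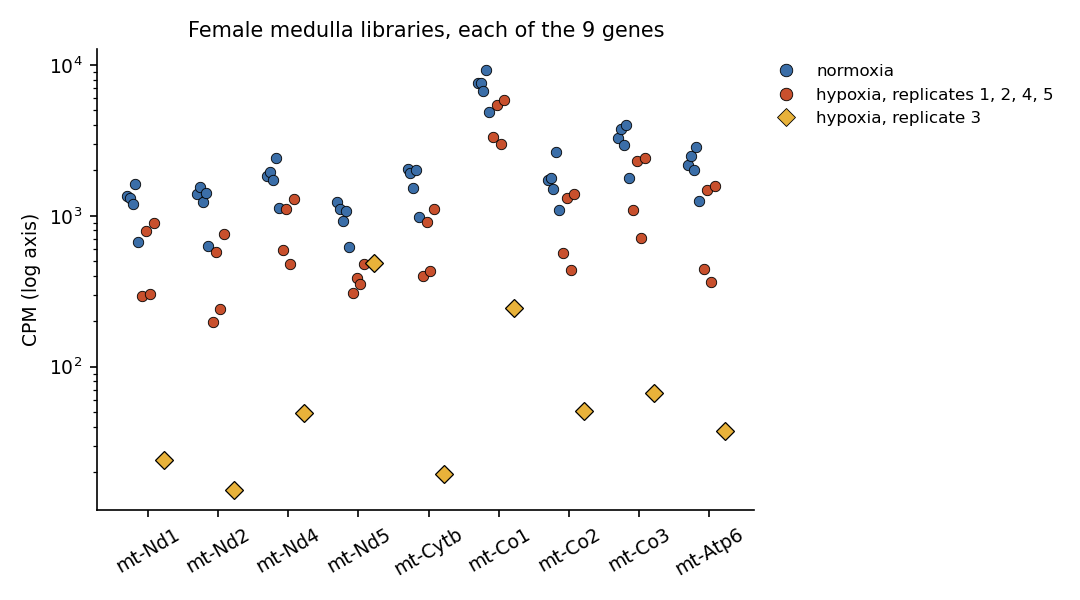
CPM on a log axis for each of the 9 genes in the 10 female medulla libraries, with 1 point per library. The diamond of hypoxia replicate 3 lies below every other point for 8 genes, at 15.3 to 246 CPM, and above the other hypoxia points for mt-Nd5, at 485 CPM.

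In the male medulla the 9 genes showed log2 fold changes of only 0.04 to 0.25 between the exposures. None was called by edgeR, DESeq2 or limma voom, and edgeR called 0% of the 14151 genes tested. At an unadjusted p under 0.05 in edgeR there were 0 of 9, beside 0.862% of all genes. The mt-Nd5 values were 949, 751, 827, 912 and 668 CPM under normoxia and 909, 961, 874, 935 and 1126 CPM under hypoxia, so the groups overlapped. The interaction of sex and exposure in the medulla was between -1.88 and -1.17 for the 9 genes. None was called by edgeR (0% of all genes). At an unadjusted p under 0.05 there were 5 of 9, beside 6.21% of all genes. Without female hypoxia medulla replicate 3 the interaction was between -1.66 and -0.85, again with 0 called. DESeq2 and limma voom each called mt-Nd5 in that interaction, at adjusted p values of 0.0141 and 0.0122.

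Cord and medulla of the same animals were then compared. In 14 of the 15 animals outside the female hypoxia group the 9 genes took a smaller share of the cord library than of the medulla library. The ratio of cord to medulla was 0.363 to 0.722 in normoxia males, 0.208 to 1.12 in hypoxia males and 0.423 to 0.817 in normoxia females. Hypoxia male replicate 2 was the exception, with 1.97% in the cord and 1.76% in the medulla. In all 5 hypoxia females the order was turned, with ratios of 1.16 to 24.4, and each of the 9 genes was higher in the cord than in the medulla of every one of these animals. The ratio of 24.4 belonged to replicate 3, and the next highest was 2.96. All values of the hypoxia females, by region and by exposure, hold for the regions as labelled. An exchange of the medulla and cord labels within that group would turn the orders by region. By exposure, it would set the libraries labelled cord, at a mean share of 2.14%, against the female normoxia medulla, at 2.13%. Those labelled medulla, at 0.893%, would stand against the female normoxia cord, at 1.08%. Such an exchange was not tested.

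**Figure D4:**
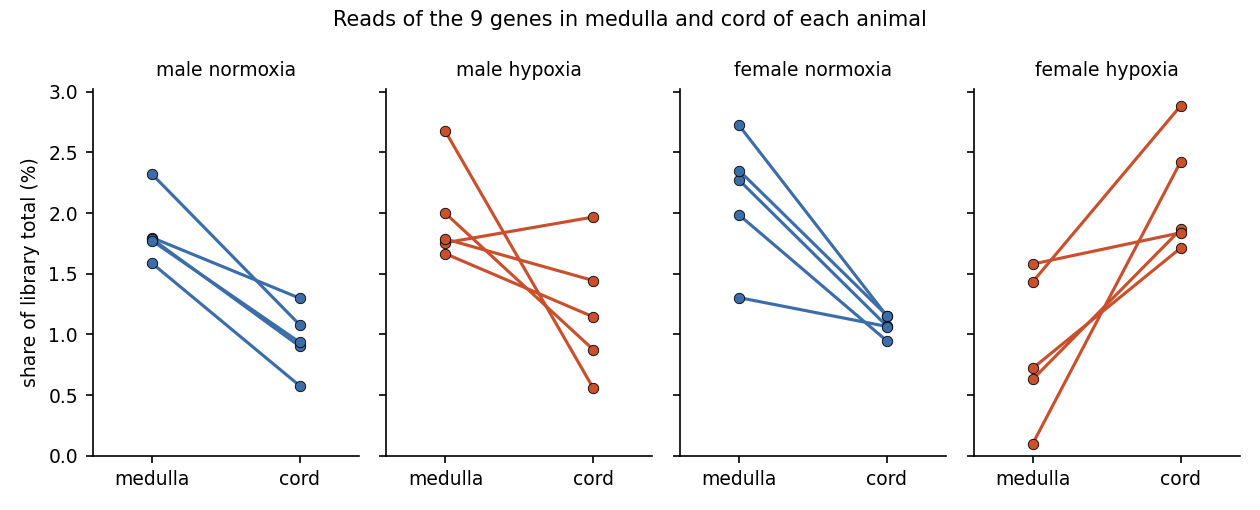
Share of library counts on the 9 genes (vertical axis, percent) in the medulla and the cord, with 1 line per animal and 1 panel per sex and exposure. Lines fall from medulla to cord in 14 of 15 animals of the first 3 panels and rise in all 5 hypoxia females.

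In each of the other 3 groups all 9 genes had negative log2 fold changes. In the fit of all 40 libraries, mt-Nd5 was the 1 gene called lower in the cord in every one of these groups. In normoxia males its medulla libraries spanned 668 to 949 CPM and its cord libraries 120 to 309 CPM (log2 fold change -1.83, SE 0.30, edgeR adjusted p = 0.00199). Its log2 fold changes were -1.33 (SE 0.30, edgeR adjusted p = 0.00478) in hypoxia males and -1.35 (SE 0.30, edgeR adjusted p = 0.00666) in normoxia females. With only the 10 libraries compared, the adjusted p in hypoxia males was 0.0731. In normoxia males mt-Nd2 and mt-Cytb were also called lower in the cord, with log2 fold changes of -2.24 (SE 0.53, edgeR adjusted p = 0.0113) and -1.60 (SE 0.46, edgeR adjusted p = 0.0304). The call of mt-Cytb was lost without medulla replicate 1 or cord replicates 3, 4 or 5 of that group, at adjusted p values of 0.0649 to 0.1. Without female hypoxia medulla replicate 3, which belongs to none of these 3 groups, mt-Nd2 and mt-Cytb were called lower in all of them. Their edgeR adjusted p values were then 0.0283 and 0.0162 in hypoxia males, and 0.0202 and 0.00717 in normoxia females.

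The number of genes called lower in the cord was thus 3 of 9 in normoxia males, 1 of 9 in hypoxia males and 1 of 9 in normoxia females, beside 4.19%, 5.07% and 3.74% of all 14832 genes called lower and 6.55%, 7.76% and 5.87% called in either direction. All cord libraries lay below all medulla libraries for 7, 4 and 7 of the 9 genes, as for 7.23%, 4.75% and 4.1% of genes of at least 1 CPM. Medians over the 9 genes were -1.20, -0.87 and -1.25 on the log2 scale, where the medians of all genes were -0.03, -0.01 and -0.02. These fits did not pair the 2 regions of an animal. With the animal as a block the medians over the 9 genes were -1.29, -1.01 and -1.21. One estimate of the spread served all 40 libraries, and the counts of genes called lower moved when single libraries were left out. Without female hypoxia medulla replicate 3 they were 6, 3 and 7. In normoxia females the count was 4 without female normoxia medulla replicate 5 and 2 without male hypoxia cord replicate 5. With only the 10 libraries compared they were 7, 0 and 9, where 5.74%, 2.94% and 7.92% of all genes were called lower. The least changed gene in males was mt-Co2, at -0.29 (adjusted p = 0.742) under normoxia and -0.20 (adjusted p = 0.82) under hypoxia.

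In hypoxia females all 9 genes were called higher in the cord, beside 26.2% of all genes called and 12.7% called higher (8.06% with scaling by library totals, where 8 of the 9 were called and the median of all genes was -0.16). The largest log2 fold change was again that of mt-Nd2, at 2.35 (SE 0.53, edgeR adjusted p = 0.00206), and the smallest that of mt-Co1, at 1.01 (SE 0.36, edgeR adjusted p = 0.035). For 6 of the genes, the 4 of complex I with mt-Cytb and mt-Co3, the lowest cord library lay above the highest medulla library, as for 2.94% of genes of at least 1 CPM. Without medulla replicate 3 all 9 were called, with log2 fold changes of 0.712 to 2.05. With the animal as a block all 9 were called, beside 15.2% of all genes called higher. Their median log2 fold change was then 1.99, against 1.51 in the unpaired fit. With only the 10 libraries of these groups, none was called, at adjusted p values of 0.0561 to 0.298, and 132 genes were called in all. This comparison and that of the female cord by exposure share the female hypoxia cord libraries.

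Whether the gap between cord and medulla changed with exposure was tested next, and in females this interaction was called for all 9 genes. It ranged from 1.84 on the log2 scale for mt-Co1 (SE 0.51, edgeR adjusted p = 0.0106) to 3.87 for mt-Nd2 (SE 0.74, edgeR adjusted p = 0.00145), and mt-Nd5 had the lowest adjusted p, 0.000952. The comparison called 20.8% of all genes and 11.2% in this direction (7.65% with scaling by library totals, median of all genes -0.16). Leaving out any of the 40 libraries in turn left all 9 called, and without female hypoxia medulla replicate 3 the interaction ranged from 1.52 to 3.55. With the animal as a block all 9 were called, beside 13.4% of all genes in this direction. Their median was then 3.02, against 2.68 in the unpaired fit. In males the same interaction was 0.04 to 0.88, with 0 of 9 called by edgeR, DESeq2 and limma voom and 0% of all genes called. At an unadjusted p under 0.05 in edgeR there were 0 of 9, beside 1.88% of all genes.

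The sexes were compared within each exposure. Under hypoxia, 8 of 9 genes were called higher in the female cord than in the male cord, at log2 fold changes of 0.71 to 1.88. Of all genes, 19.6% were called and 11.4% were called higher (7.5% with scaling by library totals, where 7 of the 9 were called and the median of all genes was -0.10). The ninth, mt-Co2, was at 0.57 (SE 0.27, edgeR adjusted p = 0.135). It overlapped widely, since male hypoxia replicate 2 held 2429 CPM and the female libraries 1333 to 2670 CPM. Library totals parted these groups too, at 13570283 to 20650051 counts in females and 8145033 to 12016434 in males. Their part in the result was not tested. With the replicate number as a block over all 20 cord libraries, 9 of 9 were called, beside 12.6% of all genes called higher. Libraries with the same number correlated in all 5 pairs between the sexes here. Across the exposures, which the block also joins, they correlated at -0.204 to 0.152 in males and -0.057 to 0.124 in females. Without the block, the count of genes called fell to 2 when male hypoxia cord replicate 4 was left out and to 5 when replicate 5 was. It was 3 with female hypoxia cord replicate 2 left out, 5 with replicate 3 left out, and 4 in a fit of only the 10 libraries compared. For 4 genes (mt-Nd1, mt-Nd2, mt-Nd5 and mt-Cytb) the sexes did not overlap, as for 3.61% of genes of at least 1 CPM. Under normoxia 0 of 9 were called in the cord by edgeR, DESeq2 and limma voom, where edgeR called 6.56% of all genes. At an unadjusted p under 0.05 in edgeR there was 1 of 9, beside 23.5% of all genes. That gene was mt-Nd5, whose female libraries all lay above the male ones, at 344 to 480 CPM against 120 to 309 CPM, as for 6.38% of genes of at least 1 CPM (log2 fold change 0.78, SE 0.34, edgeR adjusted p = 0.16).

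In the hypoxia medulla, mt-Nd5 was lower in females by 1.22 on the log2 scale (log2 fold change -1.22, SE 0.21, edgeR adjusted p = 0.0141). It was 1 of only 11 genes called there, 0.0777% of those tested, and 1 of 7 called lower in females (0.0495%). Male libraries held 874 to 1126 CPM and female libraries 310 to 485 CPM, with no overlap. The other 8 genes had log2 fold changes of -1.83 to -0.94 and adjusted p values of 0.294 to 0.344, and 4 of them (mt-Nd1, mt-Nd2, mt-Nd4 and mt-Cytb) did not overlap between the sexes either, where 0.795% of genes of at least 1 CPM lay lower in all females. Without female hypoxia medulla replicate 3 the adjusted p of mt-Nd5 was 0.00266, and the other 8 genes had log2 fold changes of -1.51 to -0.63 and were not called. The call was lost with only the 10 libraries compared (edgeR adjusted p = 0.291) and with the replicate number as a block (edgeR adjusted p = 0.102). Same-numbered libraries of the sexes there correlated at -0.386 to 0.281. The call was also lost on leaving out any 1 of 6 libraries, at edgeR adjusted p values of 0.0505 to 0.0914. These were male hypoxia medulla replicates 2, 4 and 5 and female hypoxia medulla replicates 1, 2 and 4. In the normoxia medulla the sexes differed by 0.04 to 0.31 on the log2 scale. There 0 of 9 were called by edgeR, DESeq2 and limma voom, and edgeR called 0.0707% of all genes. At an unadjusted p under 0.05 in edgeR there were 0 of 9, beside 4.15% of all genes.

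The make-up of the mitochondrial reads also varied. Since all 9 genes were scaled to the same library, the reads of the 3 complex IV genes per read of the 4 complex I genes do not depend on the total. The lengths of these genes were not used, so the ratio is one of reads and not of transcripts. It was narrow in 3 medulla groups, at 2.31 ± 0.116 in normoxia males, 2.20 ± 0.0510 in hypoxia males and 2.32 ± 0.168 in normoxia females. In the cord it was higher, at 4.63 ± 1.28 in normoxia males, 3.71 ± 1.56 in hypoxia males and 3.16 ± 0.0634 in normoxia females. No cord library of these groups lay below 2.67, and no medulla library of these groups lay above 2.55.

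Hypoxia females, with regions as labelled, again stood on the opposite sides. Their cord libraries gave ratios of 1.99, 2.24, 2.38, 2.19 and 2.35, all below those of the normoxia female cord, which spanned 3.09 to 3.25. Their medulla libraries gave 3.55, 3.18, 0.635, 2.99 and 2.82. Replicate 3, with its many mt-Nd5 reads, was thus the lowest of all libraries, while the other 4 lay above every medulla library of the other groups. The highest ratios were 5.96 and 5.93 in normoxia male cord replicates 4 and 5 and 6.45 in hypoxia male cord replicate 5. In that last library mt-Nd5 was at 93.3 CPM and mt-Nd2 at 103 CPM, while mt-Co3 was at 1195 CPM.

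**Figure D5:**
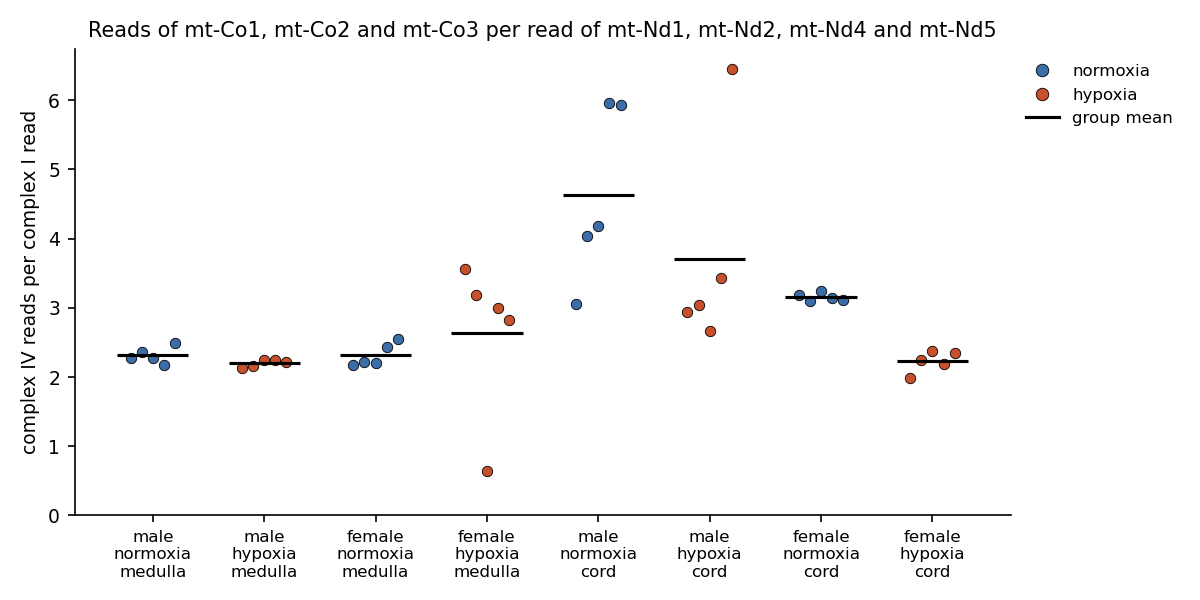
Reads of the 3 complex IV genes per read of the 4 complex I genes (vertical axis), with 1 point per library, 8 groups along the horizontal axis and a line at each group mean. The female hypoxia cord lies at 1.99 to 2.38, below every other cord library, while the other cord groups lie at 2.67 and above.

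The genes of each complex also held different parts of the mitochondrial reads. In the male normoxia medulla mt-Nd2 took 6.60 ± 0.553% of the reads of the 9 genes, and in the male normoxia cord 2.55 ± 0.935%. Over the same groups mt-Co2 took 7.90 ± 0.358% and 12.5 ± 1.33%. In the female cord mt-Nd2 took 4.18 ± 0.186% under normoxia and 7.56 ± 0.787% under hypoxia, while mt-Co1 took 39.1 ± 2.71% and 30.6 ± 2.85%. The share of mt-Atp6 was at 9.95 ± 0.182% in the male normoxia medulla, 10.4 ± 1.03% in the male normoxia cord, 8.65 ± 0.989% in the female normoxia cord and 10.4 ± 1.48% in the female hypoxia cord. It varied most in the female hypoxia medulla, at 7.21 ± 2.85%, with 6.12%, 10.4%, 3.77%, 5.82% and 9.97% in replicates 1 to 5.

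Within groups the 9 genes varied together. Deviations of log2(CPM + 1) from group means over the 40 libraries correlated at 0.891 to 0.99 between the 28 pairs that leave out mt-Nd5, and at 0.264 to 0.491 between mt-Nd5 and the others. Without female hypoxia medulla replicate 3 these ranges were 0.751 to 0.979 and 0.515 to 0.747. These values describe libraries that each gene shares with the others, together with their depth. Of the 12676 genes with an average log2 value of at least 1, the closest to the mean deviation of the set among genes outside it were ENSRNOG00000011463 (r = 0.933, mean 26.5 CPM) and ENSRNOG00000001201 (r = 0.926, mean 23.7 CPM), while the median over the genes outside the set was 0.15. Without that library the closest were ENSRNOG00000029042 (r = 0.876, mean 106 CPM) and ENSRNOG00000001201 (r = 0.872), and the median was -0.03.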

How the data were processed

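The deposited file gives raw counts of reads for each Ensembl gene ID, and its 40 columns were joined to the libraries through their names. The submitters' processing notes list TopHat2 2.1, HTSeq, edgeR and the build rn6 without their roles. Which annotation and strand setting produced the deposited counts, and how reads shared with nuclear copies of mitochondrial DNA were handled, was not found in the labels or the header, so the counts of the 9 genes may miss or share such reads. The table had 0 rows that name no gene. The reference table held 0 Ensembl IDs and 0 mitochondrial genes, so lists of other respiratory chain genes and of cell markers could not be matched, and gene positions and lengths are not used here.

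CPM was computed on library totals. Counts were tested with edgeR 4.0.16 (quasi-likelihood test, TMM factors, filterByExpr with a minimum count of 10) in R 4.3.3, within the 20 libraries of a region for exposure and sex and within all 40 for region. P-values were adjusted by Benjamini-Hochberg over all genes tested, and genes under 0.05 were called. The main fits held no term for the animal, so the regions of an animal were not paired in them. SE is the value implied by the F statistic. All 9 genes were followed in all 16 comparisons, and genes outside the set were named as the 2 closest in pattern, once over all libraries and once without the library that stood apart. The summed share and the ratio of complexes are described without a test. Alternatives were RLE factors, library totals, keeping low counts, limma 3.58.1, DESeq2 1.42.0, the 10 libraries compared, replicate blocks and omission of each library in turn. The code was tested on simulated data. The genes and lists were chosen with earlier results of these data known.

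Medulla and cord of an animal are pairs by the study design. Their deviations from the group means had positive correlations in 20 of 20 pairs, at 0.0659 to 0.529, and 17 of the 20 were over 0.1. Between groups of different animals, same-numbered libraries correlated over 0.1 in every pair only between the sexes in the hypoxia cord, at 0.171 to 0.389. Between the sexes in the normoxia cord the values were 0.0977 to 0.452. No 2 libraries of a group were alike within counting error (chi-square per degree of freedom at least 10.1).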

Additional observations from a re-analysis of the deposited data

Results flagged for a closer look

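The change of the region difference with exposure in females passed the test for all 9 genes. On the log2 scale it was 2.85 for mt-Nd1, 3.87 for mt-Nd2, 2.68 for mt-Nd4, 2.40 for mt-Nd5 and 2.81 for mt-Cytb. It was 1.84 for mt-Co1, 2.25 for mt-Co2, 2.67 for mt-Co3 and 2.95 for mt-Atp6 (edgeR adjusted p between 0.000952 and 0.0106, n = 5 per group). In the cord, the response of mt-Co3 to exposure differed between the sexes by 1.32 (edgeR adjusted p = 0.0267).

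Single libraries stood far from the other 4 of their group in 7 of 80 sets of values, where chance gives about 1 in 20, and these sets share libraries. Male normoxia medulla replicate 1 was high, with 2.32% of its counts on the 9 genes against 1.59% to 1.80%, mt-Nd2 at 1744 CPM against 981 to 1202, mt-Co2 at 1948 CPM against 1290 to 1405 and mt-Atp6 at 2331 CPM against 1606 to 1809. Male hypoxia medulla replicate 5 was high for mt-Nd2 at 1966 CPM against 985 to 1226, for mt-Co1 at 8778 CPM against 5889 to 6686 and for mt-Nd4 at 2277 CPM against 1397 to 1639.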

How the results depend on the processing

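All 9 genes were called higher in the female cord after hypoxia, and in the female interaction of region and exposure, under every alternative run. The fit of only the 10 libraries compared was not run for any interaction. For region in hypoxia females, 0 were called with only the 10 libraries compared (0.487% of all genes called higher) and 7 with limma voom (7.65%). The count was 8 with library totals (8.06%) or no filter on low counts (6.7%), and 8 to 9 when each library was left out. Exposure in the female medulla gave 1 called gene with library totals, DESeq2 or limma voom (0.00707%, 0.159% and 0.00707% of all genes called lower). It gave 0 to 1 on leaving out libraries. The interaction of sex and exposure there gave 1 with DESeq2 or limma voom (0.00722% and 0.00707%). That interaction in the cord gave 3 (mt-Co3, mt-Co2 and mt-Atp6) with the replicate number as a block, beside 14% of all genes in this direction. It gave 0 to 3 on leaving out libraries. By sex, the normoxia cord gave 1 with only the 10 libraries compared (4.12% of all genes called higher). The hypoxia medulla gave 0 with only the 10 libraries or with the replicate block and 0 to 1 on leaving out libraries. The hypoxia cord gave 4 with only the 10 libraries (7.9% of all genes called higher) and 2 to 9 on leaving out libraries. By region, normoxia males gave 5 with DESeq2 (6.61% of all genes called lower), 6 with limma voom (6.49%) and 7 with only the 10 libraries (5.74%). They gave 2 to 6 on leaving out libraries. Hypoxia males gave 5 with limma voom (3.37% of all genes called lower), 0 with only the 10 libraries (2.94%) and 1 to 3 on leaving out libraries. Normoxia females gave 5 with DESeq2 (6.3% of all genes called lower) and 9 with limma voom (9.94%) or only the 10 libraries (7.92%). They gave 1 to 7 on leaving out libraries. The block by animal changed none of the 6 counts of comparisons with region. Same-numbered libraries of the sexes in the normoxia cord each correlated best with their own number (5 of 5), and the block left 0 called there. Without the 10 most abundant other genes, the female normoxia cord share was 1.18% and the female hypoxia cord share 2.46%, from 1.08% and 2.14%. For mt-Atp6 in the normoxia cord by sex, not called at -0.16, the log2 fold change ran from -0.323 without male normoxia cord replicate 5 to 0.0361 without replicate 2 (edgeR adjusted p = 0.971), the 1 sign that turned. The cause of these moves was not tested.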
